A study of Arabidopsis thaliana with 16 samples.

Results

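Transcripts of 9 genes of alternative mitochondrial respiration were followed in *Arabidopsis* leaves. They are the alternative oxidase genes *AOX1A* (AT3G22370), *AOX1C* (AT3G27620), *AOX1D* (AT1G32350) and *AOX2* (AT5G64210), the NAD(P)H dehydrogenase genes *NDA1* (AT1G07180), *NDA2* (AT2G29990), *NDB2* (AT4G05020) and *NDB4* (AT2G20800), and *UPOX* (AT2G21640), which encodes a mitochondrial protein of the oxidative stress response. All were selected by their loci, with earlier results of these data known, and all 9 were present among the 27827 genes of the table. The samples were 16 Affymetrix AraGene-1_0-st arrays of leaf RNA, 4 per group. The groups were Col-0 wild type and the amiNaa10 and amiNaa15 lines, all well watered, and Col-0 wild type after 10 days of drought. Both lines are Col-0 plants in which an artificial microRNA under the CaMV35S promoter targets *NAA10* or *NAA15*. These encode the catalytic and the auxiliary subunit of the N-terminal acetyltransferase NatA. The study names a single line of each construct for its transcriptomes, so each mutant group stands for that line only. Plants grew on soil for 6 weeks in short days before drought was imposed. The methods have the watered plants reach the age of the drought plants before sampling, but the labels name only the 6 weeks. If the watered plants were sampled then, drought and 10 days of age cannot be told apart in any drought change below. The labels call the 4 arrays of a group biological replicates. None of the 16 arrays is of a mutant under drought. All signals below are on the log2 scale of the array, and levels of different genes are not compared with each other.

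Plant mitochondria can oxidize NAD(P)H and ubiquinol without pumping protons. Type II NAD(P)H dehydrogenases pass electrons to ubiquinone from the matrix side (NDA proteins) or from the intermembrane space (NDB proteins), and alternative oxidases pass them from ubiquinol directly to oxygen, so that complexes I, III and IV are bypassed. These genes are well known as targets of mitochondrial retrograde signalling, in which a disturbed respiratory chain raises nuclear transcripts, and the question put here is how they stood in plants with less NatA and in plants short of water.

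On replicates 1 and 2 of the arrays labelled amiNaa15 the targeted genes went against the label. *NAA15* was at 9.68 and 9.54 there, against 7.97 and 7.80 on replicates 3 and 4 and 9.10 ± 0.08 in the control (SD, n = 4). *NAA10* was at 5.16 and 5.06 on replicates 1 and 2 against 6.89 and 6.86 on replicates 3 and 4, while the amiNaa10 arrays lay between 4.92 and 5.28 and the control between 6.58 and 6.88. The group is therefore called the arrays labelled amiNaa15. Its counts of calls among the 9 genes were also taken without either pair. A change printed for this group mixes both pairs unless a pair is said to be left out. The leaf markers *RBCS1A* and *RCA* were high on every array, at no less than 13.11 and 12.15. Of the other two listed, *CAB2* was near background in all groups (means of 2.40 to 3.12), and *RBCS3B* fell under drought from a mean of 6.89 to 5.03 (-1.86, adjusted p = 0.000112). The summed signal of 5 senescence genes was 8.85 to 10.5 under drought against 7.25 to 8.38 in the control. Of the 5, 4 were called higher under drought, as were 6.27% of all genes. That of 4 root markers was 6.69 to 7.35 under drought against 7.57 to 8.95 in the control. The part of these markers in the drought results was not tested.

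Under drought 4 of the 9 genes changed, *AOX1C* and *NDB2* upward and *NDA1* and *UPOX* downward, where 6.27% of all genes rose and 7.15% fell. In amiNaa10 *UPOX* was the 1 gene of the 9 to change, downward, and the arrays labelled amiNaa15 gave no call. A gene was called when limma, fitted to all genes, gave an adjusted p below 0.05 together with a change of more than 1.5-fold. By that rule 13.4% of all genes were called under drought and 5.37% in amiNaa10. For the arrays labelled amiNaa15 the share was 4.67%. There 3 of the 9 genes (*AOX1C*, *AOX2* and *NDA1*) had an unadjusted p below 0.05, as did 6627 of all 27827 genes. Neither 1 call of 9 nor 0 of 9 sets the genes apart from such shares. The median change of the 9 genes was -0.11 in amiNaa10, -0.05 on the arrays labelled amiNaa15 and 0.09 under drought, beside medians of 0.02, 0.01 and 0.03 over all genes. All 3 comparisons share the same 4 control arrays. In leaf RNA a smaller share of cells of a type and less RNA per cell cannot be told apart.

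**Figure D1:**
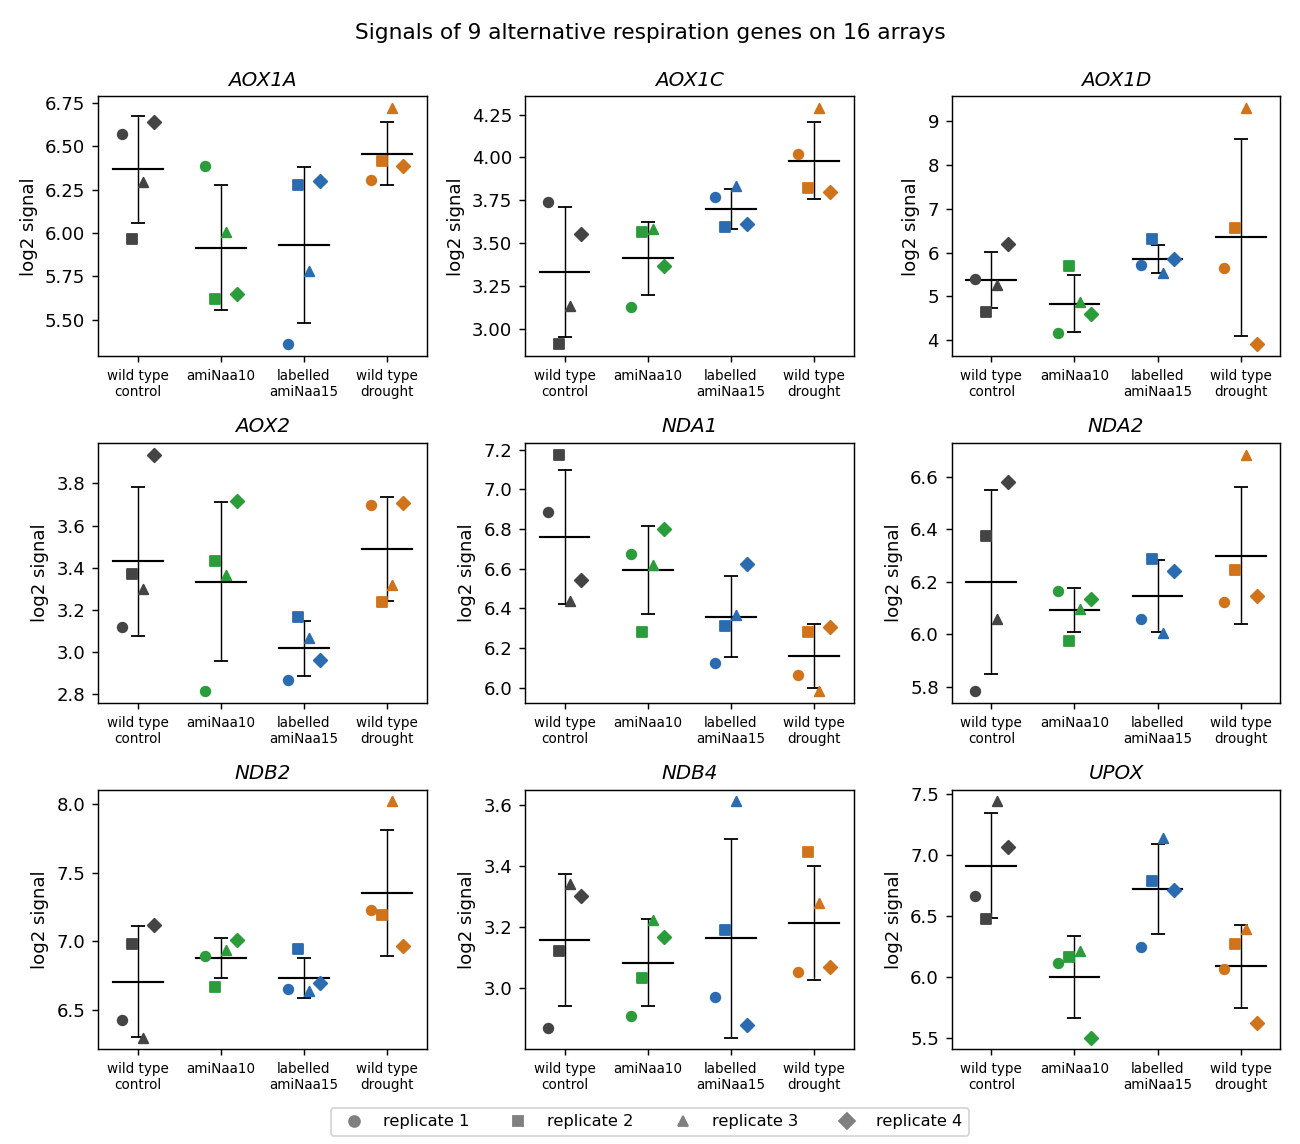
Log2 signal (y axis) of each of the 9 genes on the 16 arrays, by group (x axis). Points are arrays with the symbol giving the replicate number, the long bar is the group mean and the error bar 1 SD (n = 4). Each panel has its own y range. The 4 drought arrays of *AOX1D* run from 3.90 to 9.30, and *UPOX* is below all control arrays in amiNaa10 and under drought.

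*AOX1A*, the main stress-inducible alternative oxidase of leaves, was not called in any comparison. Its signals were 6.57, 5.96, 6.29 and 6.64 in the control and 6.31, 6.42, 6.72 and 6.38 under drought. In amiNaa10 they were 6.38, 5.62, 6.01 and 5.65, and on the arrays labelled amiNaa15 5.36, 6.28, 5.78 and 6.30. Both mutant groups overlapped the control, with means somewhat below it and most of the drought arrays within its range. The change was -0.45 in amiNaa10 (95% interval -0.92 to 0.02, adjusted p = 0.222), -0.44 on the arrays labelled amiNaa15 (-0.91 to 0.03, adjusted p = 0.242) and 0.09 under drought (-0.38 to 0.56, adjusted p = 0.826). A rise of more than 0.03 in either mutant therefore lay outside the interval, as did one of more than 0.56 under drought. From high to low the group means ran drought, control, the arrays labelled amiNaa15 and amiNaa10, and no 2 neighbours in that order differed by the test.

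*AOX1D*, an oxidase known to rise with *AOX1A* under several stresses, varied most among the drought plants. It stood at 5.40, 4.64, 5.26 and 6.19 in the control and at 5.65, 6.56, 9.30 and 3.90 under drought. The drought arrays thus held both the highest and the lowest of the 16 values, 42.4-fold apart. Their SD of 2.26 was exceeded in that group by only 13 of the 27827 genes (0.0467%). The mean difference from the control was 0.98 (95% interval -0.63 to 2.60, adjusted p = 0.397). Without drought replicate 3 it was -0.00, and without drought replicate 4 it was 1.80 (adjusted p = 0.0533), so that the direction under drought rests on single arrays. In amiNaa10 *AOX1D* was at 4.16, 5.70, 4.87 and 4.60, and on the arrays labelled amiNaa15 at 5.72, 6.30, 5.54 and 5.86. Both sets overlapped the control. The first changed by -0.54 (95% interval -2.15 to 1.08, adjusted p = 0.728) and the second by 0.49 (-1.13 to 2.10, adjusted p = 0.755). The variance of the fit was taken over all 4 groups, so the drought SD of 2.26 entered both tests. The SD was 0.64 for the control, 0.65 for amiNaa10 and 0.32 for the arrays labelled amiNaa15. Changes inside these wide intervals, in either direction, were not excluded.

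The order of the drought arrays in *AOX1D* recurred in *WRKY40*, a transcription factor known to repress *AOX1A* and other stress genes of mitochondria and chloroplasts. *WRKY40* was at 7.62, 8.13, 10.34 and 5.93 on drought replicates 1 to 4, again highest on replicate 3 and lowest on replicate 4. In the control it was at 8.68, 8.19, 8.32 and 9.30, and its mean change under drought was -0.62 (adjusted p = 0.518). Without drought replicate 3 that change was -1.40 and was called, and over all arrays left out it reached 0.07. *WRKY40* was also lower in the mutant groups. All amiNaa10 arrays, at 7.36 to 7.71, lay below all control arrays, with a change of -1.13. The arrays labelled amiNaa15 ran from 7.28 to 8.23 and overlapped the control, at -0.72. Neither change was called. The variance of the fit was taken over all 4 groups, so the drought SD of 1.82 entered these tests. Over the 16 arrays *AOX1D* and *WRKY40* had a Pearson r of 0.80 and a Spearman rho of 0.55. Without drought replicates 3 and 4, the arrays farthest from the median of *WRKY40*, r was 0.40, so that the relation rests mostly on those arrays. The arrays are single leaf RNA samples that share group and platform. *WRKY40* was looked at because of its values among the regulators listed for the pathway.

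**Figure D2:**
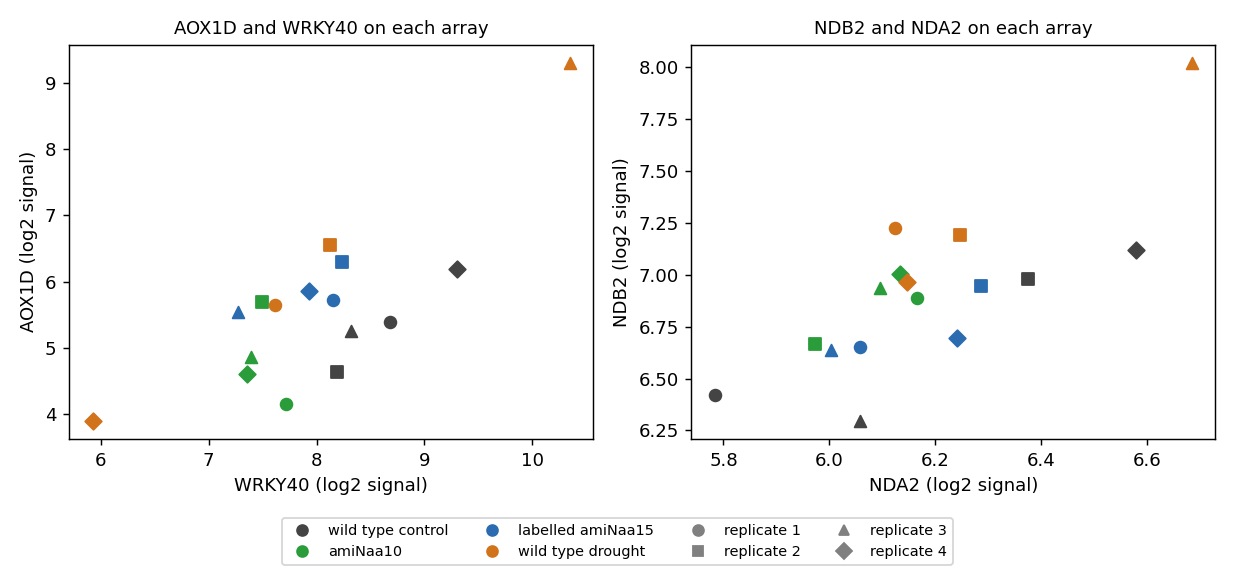
Log2 signals of *AOX1D* (y axis) against *WRKY40* (x axis) on the left and of *NDB2* (y axis) against *NDA2* (x axis) on the right, 1 point per array (n = 16), with colour for the group and symbol for the replicate number. Drought replicate 3 is at the top right of both panels, and drought replicate 4 is at the bottom left of the first only.

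*AOX1C*, an isoform best known from floral tissue, was weakly detected and rose under drought. Its signals were 3.74, 2.91, 3.13 and 3.55 in the control and 4.02, 3.82, 4.29 and 3.80 under drought. Every drought array was above every control array, which held for 3 of the 9 genes in 1 direction or the other and for 24.8% of all genes. The difference was 0.65 ± 0.17 (SE, n = 4 per group), or 1.57-fold (adjusted p = 0.0111). The call was lost without control replicate 2 or 3 or drought replicate 3, when the change fell as low as 0.51 and so under the fold minimum. The highest adjusted p over all 16 arrays left out in turn was 0.0400. The signal was 3.13, 3.56, 3.58 and 3.37 in amiNaa10, and the arrays labelled amiNaa15 were at 3.77, 3.59, 3.83 and 3.61. Neither was called, with changes of 0.08 (adjusted p = 0.834) and 0.37 (adjusted p = 0.202). All these signals are near the low end of the array, where 5969 genes have a mean below 3.

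*AOX2*, an isoform known from seeds, was also near background and was not called in any comparison. It read 3.12, 3.37, 3.30 and 3.94 in the control and 3.70, 3.24, 3.32 and 3.71 under drought. The amiNaa10 arrays read 2.82, 3.43, 3.37 and 3.72 and those labelled amiNaa15 2.87, 3.17, 3.07 and 2.96. The groups overlapped the control throughout. The lowest mean was that of the arrays labelled amiNaa15, at -0.41 from the control (adjusted p = 0.209).

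Among the internal dehydrogenases *NDA1*, whose transcript is known to follow light and the clock, fell under drought. It was at 6.89, 7.17, 6.44 and 6.54 in the control and at 6.06, 6.28, 5.98 and 6.31 under drought. All drought arrays were below all control arrays. The change was -0.60 ± 0.16 (SE, n = 4 per group; adjusted p = 0.0135), a 1.52-fold difference close to the fold minimum. It fell short of that minimum without control replicate 1 or 2 or drought replicate 1 or 3 (down to -0.46), with an adjusted p of at most 0.0480 over all arrays left out. On the arrays labelled amiNaa15 *NDA1* was at 6.13, 6.31, 6.37 and 6.62, and in amiNaa10 at 6.67, 6.28, 6.62 and 6.80. The first set was mostly below the control and the second within its range or just under it, at -0.40 (adjusted p = 0.144) and -0.17 (adjusted p = 0.591). The means ran downward from the control through amiNaa10 and the arrays labelled amiNaa15 to drought, and no neighbours in that order differed by the test.

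Clock genes also differed between the drought and control arrays. Of 10 listed, 4 were called higher and 1 lower under drought (50%, against 13.4% of all genes). *CCA1* and *LHY*, the morning-phased core transcription factors, were higher by 1.00 (adjusted p = 0.000181) and 1.28 (adjusted p = 2.5e-05), and *PRR5*, which represses them, was lower by 0.65 on the log2 scale (adjusted p = 0.0162). No clock gene was called in amiNaa10, whereas *PRR5* and *TOC1* were called higher on the arrays labelled amiNaa15, by 0.65 and 0.59. These were 20% of the list, against 4.67% of all genes. Those calls were kept in 6 and 12 of 16 fits without 1 array. Neither was kept without replicates 1 and 2 of those arrays together (adjusted p = 0.321 and 0.346), and only that of *TOC1* without replicates 3 and 4 (adjusted p = 0.0712 for *PRR5* and 0.00312 for *TOC1*). Under drought the *PRR5* call was lost without control replicate 3 or drought replicate 4, and that of *ELF4* without drought replicate 3. The part of the clock genes in the *NDA1* values was not tested.

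*NDA2*, the other internal dehydrogenase, was not called in any comparison. It was at 5.78, 6.37, 6.06 and 6.58 in the control and 6.12, 6.25, 6.68 and 6.15 under drought. The amiNaa10 arrays were at 6.17, 5.97, 6.09 and 6.13 and those labelled amiNaa15 at 6.06, 6.29, 6.00 and 6.24. The control alone covered nearly all of that range. Its changes were -0.11, -0.05 and 0.10, with adjusted p-values of 0.745, 0.885 and 0.716.

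*NDB2*, an external NADH dehydrogenase known to respond to stress together with *AOX1A*, rose under drought, but by a margin that depended on single arrays. It was at 6.42, 6.98, 6.29 and 7.12 in the control and at 7.23, 7.19, 8.02 and 6.97 under drought. Drought replicate 4 lay within the control range, so the groups overlapped. The difference was 0.65 ± 0.21 (SE, n = 4 per group), or 1.57-fold (adjusted p = 0.0346). Without drought replicate 3 it was 0.43 (adjusted p = 0.106), and the call was also lost without control replicate 1 or 3 or drought replicate 1. It was kept in 12 of the 16 fits that left out 1 array, and under 7 of 12 other settings. *NDB2* was at 6.89, 6.67, 6.93 and 7.00 in amiNaa10 and at 6.65, 6.95, 6.64 and 6.69 on the arrays labelled amiNaa15. Both lay inside the control range, at 0.17 (adjusted p = 0.684) and 0.03 (adjusted p = 0.955).

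*NDB2* and *NDA2* moved together from array to array. Their Pearson r was 0.79 and their Spearman rho 0.74 over 16 arrays, the highest r of the 36 pairs among the 9 genes. Without drought replicate 3 and control replicate 4, the arrays farthest from the median of *NDA2*, this r was 0.62. Taken as deviations from the group means over all 16 arrays, r was 0.89. The lowest r of the 36 pairs was that of *AOX1C* and *NDA1*, at -0.75, and was -0.44 within groups.

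*NDB4*, a second external dehydrogenase, was near background and not called in any comparison. Its signals ran from 2.87 to 3.34 in the control, 2.91 to 3.23 in amiNaa10, 2.88 to 3.61 on the arrays labelled amiNaa15 and 3.05 to 3.45 under drought. The 3 changes from the control were -0.07, 0.01 and 0.05, and the widest of their 95% intervals reached from -0.41 to 0.39.

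*UPOX*, a small mitochondrial protein named for its rise under oxidative stress and widely used as a marker of it, fell in 2 of the 3 comparisons. Its signals were 6.66, 6.48, 7.44 and 7.06 in the control, and 6.11, 6.17, 6.21 and 5.50 in amiNaa10. Under drought they were 6.06, 6.27, 6.39 and 5.62, and on the arrays labelled amiNaa15 6.24, 6.79, 7.14 and 6.71. All amiNaa10 and all drought arrays were below all control arrays (16% of all genes did not overlap between amiNaa10 and control), and the arrays labelled amiNaa15 overlapped the control. *UPOX* was lower by 0.91 ± 0.24 in amiNaa10 on the log2 scale (SE, n = 4 per group), or 1.88-fold (adjusted p = 0.0302). Under drought the change was -0.82 ± 0.24, or 1.77-fold (adjusted p = 0.0189). The amiNaa10 call was kept in 11 of 16 fits without 1 array and lost without control replicate 3 or 4 or amiNaa10 replicate 1, 2 or 4, with an adjusted p of at most 0.0975. The drought call was kept in 14 of 16 and lost without control replicate 3 or drought replicate 4, with an adjusted p of at most 0.0644.

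On the arrays labelled amiNaa15 the *UPOX* change was -0.19 (95% interval -0.70 to 0.31, adjusted p = 0.680). It was 0.01 without replicates 1 and 2 and -0.40 without replicates 3 and 4. Set directly against each other, amiNaa10 was 0.72 below the arrays labelled amiNaa15 on the log2 scale. The arrays of both did not overlap (4.93% of all genes), but the adjusted p was 0.572. No gene of the table was called in that comparison. It cannot separate the constructs, as *NAA10* on replicates 1 and 2 of the second group was as low as in amiNaa10. Without replicates 1 and 2 the *UPOX* difference was -0.93 (adjusted p = 0.467). Drought and amiNaa10 differed by 0.09 in *UPOX* (95% interval -0.42 to 0.59, adjusted p = 0.834). From high to low the means ran control, the arrays labelled amiNaa15, drought and amiNaa10.

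**Figure D3:**
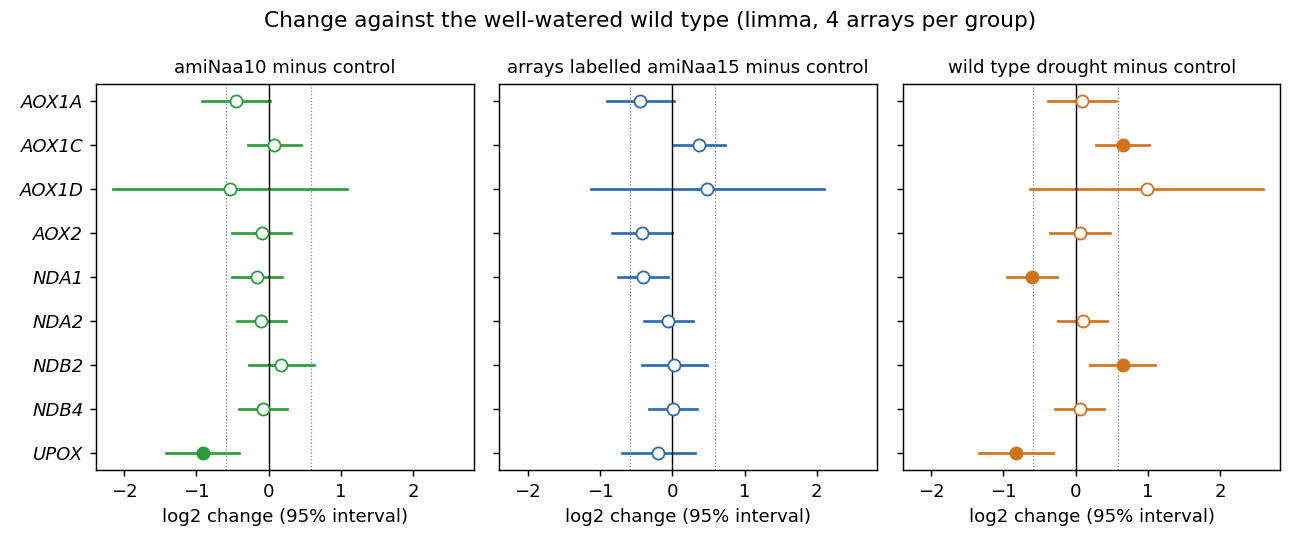
Log2 change from the well-watered wild type (x axis, point) with its 95% interval (line) for each of the 9 genes (y axis), from limma on 4 arrays per group. Filled points passed an adjusted p below 0.05 and 1.5-fold, and the dotted lines mark 1.5-fold. The filled points are *UPOX* in amiNaa10 and *AOX1C*, *NDA1*, *NDB2* and *UPOX* under drought.

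Set against the mutants instead of the control, drought gave 1 call among the 9 genes. *NDB2* was higher under drought than on the arrays labelled amiNaa15 by 0.62 ± 0.21 (SE, n = 4 per group; adjusted p = 0.0456; 13.7% of genes called), and the arrays of both did not overlap (23.8% of all genes). This call was kept in only 6 of 16 fits without 1 array, and lost without either pair of the arrays labelled amiNaa15 (adjusted p = 0.121 without replicates 1 and 2). Drought against amiNaa10 gave no call among the 9, at 17.3% of all genes called. An unadjusted p below 0.05 was reached by 4 of the 9 and by 10468 of all 27827 genes. The nearest was *AOX1C*, higher in drought by 0.57 (adjusted p = 0.0192) but under the fold minimum. *AOX1A* was above both mutant groups in drought by 0.54 (adjusted p = 0.0798) and 0.53 (adjusted p = 0.101). Between amiNaa10 and the arrays labelled amiNaa15, no member was called, with 1 at an unadjusted p below 0.05, beside 1917 of all 27827 genes.

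Drought replicate 3 gave the highest of the 4 drought signals in 6 of the 9 genes, among them *AOX1A*, *AOX1C*, *AOX1D*, *NDA2*, *NDB2* and *UPOX*, and the lowest in *NDA1*. Over all genes it was the highest drought array for 26.5% and the lowest for 31.8%. Drought replicate 4 was the lowest in 4 of the 9. Without drought replicate 3 only *UPOX* of the 4 drought calls remained.

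The 5 other genes of these families were not called in any comparison with the control. They were the oxidase *AOX1B*, which lies next to *AOX1A* on chromosome 3, the dehydrogenases *NDB1*, *NDB3* and *NDC1*, and *IM*, the plastid terminal oxidase. *NDC1*, a type II dehydrogenase found in plastids and mitochondria, came nearest. It was at 7.13, 7.24, 6.98 and 7.07 in the control and 6.45, 6.58, 6.54 and 6.55 under drought, without overlap. That change of -0.57 (adjusted p = 0.000493) was just under the fold minimum and passed it without control replicate 3 or drought replicate 2. *NDB1*, an external NADPH dehydrogenase, was at -0.40 under drought (adjusted p = 0.0255) and *IM* at 0.31 (adjusted p = 0.0362), both under the fold minimum.

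A list of 13 further genes known to answer mitochondrial dysfunction gave few calls. Neither mutant group gave a call, and the medians were 0.09 and 0.22. In each, 2 genes had an unadjusted p below 0.05, where 6780 and 6627 of all 27827 genes did. Under drought 1 was called higher and 1 lower (15.4% of the list, against 13.4% of all genes), with a median of 0.18. In 6 of the 13 the group mean stayed below 3 in every group, so that a small change there was hard to measure. *CRF6*, a cytokinin response factor, was at 6.38, 6.15, 6.66 and 6.70 in the control and 7.38, 7.49, 7.16 and 6.65 under drought, a rise of 0.70 (adjusted p = 0.0107) with overlap in drought replicate 4. *SOT12*, a sulfotransferase, was at 5.16, 5.79, 5.50 and 5.63 in the control and at 4.47, 4.44, 4.48 and 4.42 under drought. Its drought arrays were nearly level and all below the control, at -1.07 (adjusted p = 0.000214). Both calls held in all 16 fits without 1 array, and the count rose to 4 without control replicate 3, when AT5G51440 and AT5G43450 were also called. AT5G43450 was called as well without control replicate 4 or drought replicate 2 or 4. *BCS1*, an AAA-type ATPase of the mitochondrion, was at -0.52, -0.68 and -0.79 in the 3 comparisons without passing the test.

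Among regulators of the response 1 gene was called. Of 12 listed, *NAC016*, a close relative of the retrograde activator *NAC017*, was called higher in both mutant groups, and none was called under drought. With 1 array left out, *WRKY40* was called lower under drought without drought replicate 3, and *MYB29* without drought replicate 4 (-0.67). *NAC016* was at 5.25, 5.12, 5.93 and 5.88 in the control, 6.14, 7.62, 6.66 and 6.14 in amiNaa10, and the arrays labelled amiNaa15 were at 7.48, 7.43, 6.21 and 7.02. Every mutant array was above every control array. It was 2.14-fold higher in amiNaa10 (adjusted p = 0.0488) and 2.81-fold higher on the arrays labelled amiNaa15 (adjusted p = 0.0119). The amiNaa10 call was kept in only 3 of 16 fits without 1 array, with an adjusted p of up to 0.158. The call for the arrays labelled amiNaa15 held in all 16, but not without replicates 1 and 2 together (1.07, adjusted p = 0.241). *NAC017* itself, which is released from the endoplasmic reticulum on mitochondrial stress, was at 0.16, 0.05 and 0.21 from the control in the 3 comparisons and was not called. *NAC13*, a second activator of the response, was at 0.01, 0.04 and 0.37, the last with an adjusted p of 0.0166 but under the fold minimum.

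The cytochrome pathway that the 9 genes bypass was represented by 50 measured genes listed under complexes I to IV and cytochrome c. The complex IV list holds assembly factors beside subunits. In amiNaa10 1 was called lower, and under drought 1 was called higher. That was 2% in each, against 5.37% and 13.4% of all genes. On the arrays labelled amiNaa15 none was called, with 3 at an unadjusted p below 0.05, beside 6627 of all 27827 genes. *GAMMA CA1*, a gamma carbonic anhydrase subunit of complex I, was at 7.15, 7.26, 7.36 and 7.25 in the control and 6.65, 6.19, 6.71 and 6.48 in amiNaa10. All 4 amiNaa10 arrays were below the control, at -0.75 (adjusted p = 0.00411), and this call held in all 16 fits without 1 array. It was at -0.57 on the arrays labelled amiNaa15 (adjusted p = 0.0089) and at -0.45 under drought (adjusted p = 0.0101), both under the fold minimum. AT5G25450, listed under complex III, rose under drought by 0.94 (adjusted p = 0.0312) with overlapping arrays, and the call was lost without control replicate 2 or 4 or drought replicate 1 or 3.

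Complex I subunits lay lower under drought by small amounts. None of 18 passed the fold minimum, but 10 had an adjusted p below 0.05 and all 10 were lower, where 10.8% of all genes were lower by that measure. The median over the 18 was -0.31 and 13 were below 0. The largest were the gamma carbonic anhydrase subunits *GAMMA CA3* at -0.45 (adjusted p = 0.00419) and *GAMMA CA1*. With each array left out in turn between 6 and 10 of the 18 had such a p and were lower, 6 without drought replicate 1. In either mutant group *GAMMA CA1* was the 1 complex I gene lower with an adjusted p below 0.05 (3.9% and 3.59% of all genes), and the medians were -0.01 and -0.09. The lists for complexes II, III with cytochrome c, and IV had medians of -0.09, -0.06 and 0.01 under drought.

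Genes that feed ubiquinone from other donors, and uncoupling proteins, gave 1 call. It fell on the arrays labelled amiNaa15, as 14.3% of the donors against 4.67% of all genes. Of 7 donors *IVD*, the isovaleryl-CoA dehydrogenase of leucine breakdown, was at 7.87, 7.71, 7.82 and 7.75 in the control and 8.37, 8.91, 8.14 and 8.54 on the arrays labelled amiNaa15. The groups did not overlap (15% of all genes), and the rise was 0.71 (adjusted p = 0.0159). It was lost without replicate 2 of the arrays labelled amiNaa15 (0.57, adjusted p = 0.0605) and without replicates 1 and 2 together (0.56, adjusted p = 0.196). None of the 3 uncoupling proteins was called.

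**Figure D4:**
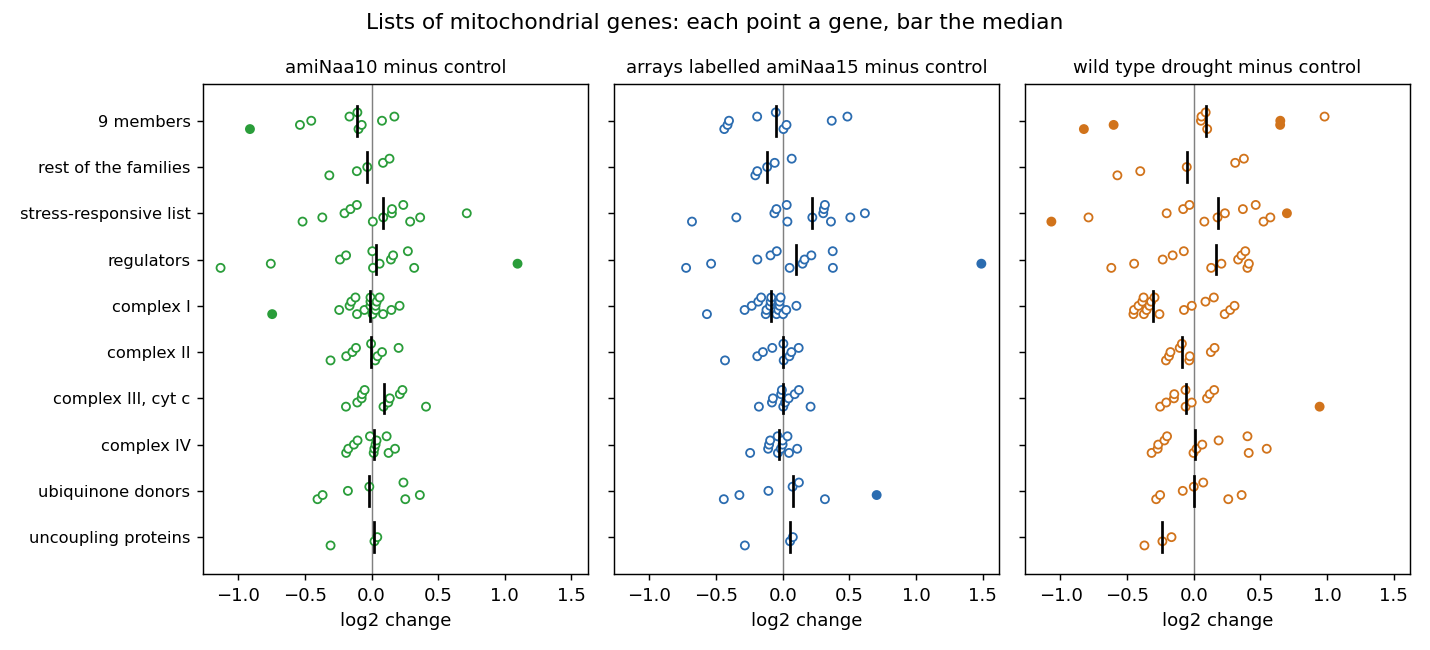
Log2 change from the well-watered wild type (x axis) of every measured gene in 10 lists (y axis), 1 panel per comparison. Each point is a gene, filled where it passed an adjusted p below 0.05 and 1.5-fold, and the black bar is the median of the list. The complex I points under drought lie mostly left of 0 with a median of -0.31, and the median of the 9 genes lies near 0 in all panels.

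For each of the 4 genes called against the control, the 3 named genes most like it over the 16 arrays were taken among 6773 with a symbol and a mean signal of at least 5. *AOX1C* ran closest to *ARA7* (Pearson r = 0.89), *BGLU11* (0.89) and *NAC6* (0.88), a promoter of leaf senescence. *NDA1* ran closest to *HCF244* (0.91), *TTL1* (0.91) and *SPS2* (0.90), of which *HCF244* acts in photosystem II assembly and *SPS2* makes the plastid solanesyl chain. *NDB2* was closest to *ELF5A-1* (0.89), *SPL14* (0.89) and *ELC-Like* (0.88), and *UPOX* to *VSP1* (0.91), a jasmonate-responsive storage protein, *THFS* (0.90) and *PDIL1-4* (0.88). These are the highest of many values over arrays that share groups, and 5% of the candidates reached an r of 0.66 for *AOX1C*, 0.75 for *NDA1*, 0.63 for *NDB2* and 0.51 for *UPOX*.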

How the data were processed

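The authors hybridised leaf RNA to AraGene-1_0-st arrays and deposited log2 signals per gene, made by RMA with quantile normalization and a custom probe annotation (version 16, per the methods). The TAIR release behind it is not given in the sources used here, so no coordinates are printed. Once sorted, the 16 columns of values were checked to be the same. Scanner files were not used here. Symbols come from the RefSeq table of TAIR10.1, in which 27241 loci were found. *UPOX*, *NAA10* and *NAA15* are named after the study or the selection rule.

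From the deposited log2 values, each gene was fitted with 1 mean per group over 16 arrays (12 residual degrees of freedom) in limma 3.58.1 under R 4.3.3, with Benjamini-Hochberg adjustment over all 27827 genes in each comparison. For 2 genes constant within every group p was set to 1. The fit was tested on simulated data. Alternatives were the variance model, the samples in the fit, the replicate number as a block, a filter on low signals, normalization, array weights, the fold minimum, leaving out each array, and leaving out either pair of the arrays labelled amiNaa15. The number of arrays limits the precision, and p-values measure the spread between these arrays.

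The 9 genes and all lists were chosen with earlier results of these data known. Named genes are the 9, the targeted genes, listed genes that were called (up to 4 per list) with defining regulators and markers, and the 3 genes most like each called member. *CAB2*, *WRKY40*, *MYB29*, *BCS1*, AT5G51440, AT5G43450, *NDC1*, *NDB1*, *IM*, *GAMMA CA3* and the genes most like *AOX1D* were named after their values were seen. Of 141 listed loci 140 were measured. The fits of listed genes with arrays left out, and the count of complex I genes without a fold minimum, were chosen after seeing the data.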

Additional observations from a re-analysis of the deposited data

Results flagged for a closer look

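In 44 sets of 4 arrays (the 9 genes, *NAA10* and *NAA15* in each group), 1 array stood apart by Dixon's criterion. *UPOX* was at 5.50 on amiNaa10 replicate 4, with the nearest array of the group at 6.11, and the gap was 0.865 of the range of the group, above the critical value for 4 samples. Chance gives such a gap in about 1 of 20 sets. Without that array *UPOX* was lower in amiNaa10 by 0.75 on the log2 scale and was not called.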

How the results depend on the processing

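Over 28 alternatives (16 arrays left out in turn and 12 other settings), 1506 values of the 9 genes were recomputed. Of these 1450 stayed on the same side of the threshold, 46 called values were no longer called, 10 became called and no called value changed sign. Among values never called, 42 changed sign. Calls on the arrays labelled amiNaa15 (0 of 9) and between amiNaa10 and those arrays (0 of 9) were at 0 in every setting.

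With a 2-fold minimum the calls among the 9 genes fell to 0 in amiNaa10, under drought, and for drought against the arrays labelled amiNaa15. Without moderation of the variance they fell to 0 in amiNaa10 and for drought against the arrays labelled amiNaa15. The latter also fell to 0 with only the 2 groups compared, under cyclic loess, with array weights, and without either pair of the arrays labelled amiNaa15. Drought against amiNaa10 rose to 1 with array weights or no fold minimum (*AOX1C*). The cause of these moves was not tested, beyond the stricter or absent fold minimum itself. With 1 array left out in turn the calls ranged from 0 to 1 in amiNaa10, from 1 to 4 under drought, from 0 to 2 for drought against amiNaa10 and from 0 to 1 for drought against the arrays labelled amiNaa15. Drought gave 1 call without control replicate 3 or drought replicate 3.

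Same-numbered arrays did not deviate together throughout, with r from -0.20 to 0.32 over 24 pairs, beside -0.40 to 0.32 for other numbers. Between amiNaa10 and the arrays labelled amiNaa15 every same-numbered r was above 0 (0.01, 0.32, 0.32 and 0.09). Only 6 of 16 arrays were closest to their own number, so the numbers were not taken as pairs. When the number entered the fit as a block, calls were 1 in amiNaa10, 0 on the arrays labelled amiNaa15 and 3 under drought, where *NDB2* (0.65, adjusted p = 0.0561) was lost. Between drought and amiNaa10, and between amiNaa10 and the arrays labelled amiNaa15, the blocked calls were 0. Against the arrays labelled amiNaa15 *UPOX* (adjusted p = 0.0351) was called in place of *NDB2*.

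Over all genes the called number, 1494, 1299 and 3736 in amiNaa10, on the arrays labelled amiNaa15 and under drought, ranged from 611 to 2236, from 108 (without replicates 1 and 2 of the arrays labelled amiNaa15) to 2098, and from 1294 to 6865 over the 12 settings, and from 556 to 1644, from 663 to 1944 and from 3283 to 3885 with 1 array left out. Signals near 3, as of *AOX1C*, *AOX2* and *NDB4*, limit what can be measured, and with 4 arrays per group changes near 1.5-fold are at the edge of the test.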

Other observations

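By the likeness measure used for the called genes, *AOX1D* ran closest to *UGT71B5* (Pearson r = 0.93 over 16 arrays), *ERD1* (0.88), a dehydration-induced regulatory subunit of a chloroplast protease, and *DPL1* (0.88), a sphingolipid-degrading lyase. *AOX1D* was not called, and these genes were looked up after its values had been seen. Under drought *UGT71B5* was at 6.41, 6.50, 7.88 and 5.48 and *ERD1* at 10.32, 10.50, 11.21 and 10.10. Both were highest on drought replicate 3 and lowest on drought replicate 4, as *AOX1D* was, over a narrower range.

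Between the pairs of arrays labelled amiNaa15 the 9 genes differed by at most 0.41 on the log2 scale. The largest differences were in *UPOX*, with a mean of 6.51 on replicates 1 and 2 and 6.92 on replicates 3 and 4, and in *AOX1D*, with 6.01 and 5.70. Against the control *NDA1* was at -0.27 without replicates 1 and 2 and at -0.54 without replicates 3 and 4. In the same order *AOX1A* was at -0.33 and -0.55, and *AOX1D* at 0.33 and 0.64. None of these was called.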
